A study of Mus musculus with 8 samples.

Results

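Short tandem repeats (microsatellites) are stretches in which a unit of a few bases is copied head to tail. Among adenines called as N6-methyladenine in mouse ES cells, 173 of 17418 called sites lay in such a setting. They were chosen by sequence alone. The 41-base context of the call, with the called adenine at base 21, had to hold a stretch of 16 or more bases in which every base equals the base 2, 3 or 4 places later (the period), and which is not a single repeated base. 4 regions dense in calls were left out: an unplaced contig with 744 sites and short spans of chromosomes 9, 14 and 2 with 521, 217 and 113. They held no context that met the rule. This leaves 15823 sites, 173 in repeats and 15650 outside them. No measured value entered the choice.

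The cells were TT2 ES cells of a C57BL6 x CBA background, at passage 5 to 10, grown without feeder cells and with no treatment. Chromatin was taken by native ChIP (without crosslinking) with a customized antibody to the histone variant H2A.X, and the DNA was read by single-molecule real-time (SMRT) sequencing, in a long (L) and a short (S) part. Cells with an Alkbh1 knockout (KO) were set beside wild-type (WT) cells. The 8 samples are 2 replicates of each of the groups KO L, WT L, KO S and WT S, and both replicates of a group point to 1 list. No result below therefore has a replicate check, and no test between groups was made. Save where marked, all intervals are exact 95% intervals that cover counting error only and treat sites as independent. The labels do not say how the knockout was made or how many clones were used, and the lists cannot check it, since they hold called bases alone.

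SMRT sequencing watches a polymerase copy a single DNA molecule, and the time between successive base additions (the inter-pulse duration, IPD) lengthens at some modified bases. N6-methyladenine is a methyl mark on adenine, best known from bacteria, and ALKBH1 has been described as an enzyme that removes it from DNA in mouse ES cells. Microsatellites arise mainly by slippage of the polymerase during copying, and the A-rich tails of retrotransposed elements are a common place for them to start. Their length differs between individuals and strains, and near-identical copies are spread over the genome, so reads can be hard to place and to align there. The deposited values are an IPD ratio (observed over predicted), the coverage at the base, a score of the call (20 or more in all lists), an identification score for the fit to N6-methyladenine, and, at coverage of 11 or more, the fraction called modified.

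The following contexts show what these sites look like. Each is the site with the highest score of its period in its list, or a site with the longest stretch of its period. They are printed 5′ to 3′ on the called strand, from the deposited contexts (build mm10), with the repeat stretch in capitals. The called adenine is base 21 in each.
AC repeat, KO L, chr8:123600967-123601007, plus strand: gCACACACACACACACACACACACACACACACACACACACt
AG repeat, WT L, chr3:61553606-61553646, plus strand: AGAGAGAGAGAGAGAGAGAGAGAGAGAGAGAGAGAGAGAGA
AC repeat, KO S, chr13:90097049-90097089, minus strand, in Tmem167: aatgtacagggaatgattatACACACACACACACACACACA
AAC repeat, KO S, chr2:32465934-32465974, minus strand: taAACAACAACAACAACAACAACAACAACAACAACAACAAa
AAC repeat, WT L, chrY:22153774-22153814, minus strand: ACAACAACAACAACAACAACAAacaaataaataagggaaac
AAG repeat, WT S, chr5:66673767-66673807, minus strand, in Uchl1os: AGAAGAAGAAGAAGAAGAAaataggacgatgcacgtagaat
AGAT repeat, KO L, chr10:114480930-114480970, minus strand, in Trhde: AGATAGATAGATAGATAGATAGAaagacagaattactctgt
AAAT repeat, WT L, chr5:142475334-142475374, minus strand, in Ap5z1: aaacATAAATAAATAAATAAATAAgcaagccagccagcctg
AAAT repeat, KO S, chr9:88611379-88611419, minus strand, in Gm26567: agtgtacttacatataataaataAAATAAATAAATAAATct
AGAT repeat, WT S, chr2:85186526-85186566, minus strand: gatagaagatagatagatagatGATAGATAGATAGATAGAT

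The KO S site in Gm26567 had the highest score of the repeat sites, 60, at coverage 35, with an IPD ratio of 3.53, an identification score of 47 and a modified fraction of 100%. Its called adenine lies 3 bases before the capitals. The WT S site on chromosome 2 came next, with a score of 50, an IPD ratio of 4.91 and an identification score of 36, at a coverage of 8 only. In the AAAT repeat in Ap5z1 (a subunit gene of an adaptor complex that sorts endosomal cargo), the WT L site had a score of 34, coverage 19 and an IPD ratio of 3.83. In Trhde, which encodes an enzyme that degrades thyrotropin-releasing hormone, the KO L site had a score of 33, coverage 15 and an IPD ratio of 5.93. By contrast, the AC repeat on chromosome 8 (KO L) and the AG repeat that fills its whole context on chromosome 3 (WT L) were called at coverage 6, the lowest in the lists, with IPD ratios of 2.57 and 2.92.

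Repeat contexts were a small part of every list. They made up 32 of 2691 sites in KO L (1.19%, 0.815 to 1.68%), 44 of 3501 in WT L (1.26%, 0.915 to 1.68%), 22 of 3025 in KO S (0.727%, 0.456 to 1.10%) and 75 of 6606 in WT S (1.14%, 0.894 to 1.42%). These 4 intervals overlap. Units of 2 bases gave 13 sites in KO L, 19 in WT L, 12 in KO S and 21 in WT S. Units of 3 bases were rare, with 2, 4, 3 and 5 sites in the same order of lists. Units of 4 bases gave 17 sites in KO L, 21 in WT L, 7 in KO S and 49 in WT S, that is 0.632%, 0.600%, 0.231% and 0.742% of the sites of those lists.

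**Figure D1:**
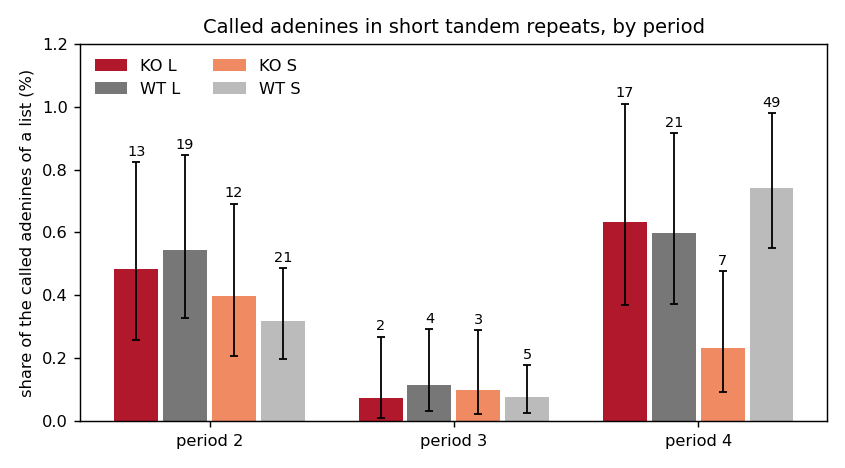
Share of called sites (percent of the list, y axis) whose context holds a repeat stretch, by period (x axis), for the 4 lists; bars are shares with exact 95% intervals and the number of sites above each. The period 4 share of KO S (0.231%) lies under that of WT S (0.742%), while the KO L and WT L shares are 0.632% and 0.600%.

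The called adenines were also set beside the other adenines of the same contexts, each taken with the 21 bases centred on it. Of the called adenines, 18 in KO L, 20 in WT L, 8 in KO S and 30 in WT S lay in a 21-base window with a 16-base stretch. The mean over the other adenines of the same contexts was 17.4, 20.3, 8.15 and 31.9 such windows in those lists. The ratios of called to other adenines were 1.04 in KO L, 0.985 in WT L, 0.982 in KO S and 0.941 in WT S. With a 12-base stretch they were 1.107, 0.9593, 0.9475 and 0.8965 in the same order of lists. The window of each other adenine overlaps that of the called one, so ratios near 1 were partly built in. They cannot show whether calls favour or avoid repeats. This comparison was added after the data were seen.

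The ratio of KO to WT repeat sites was lower in S than in L. In L, 32 KO sites stood against 44 WT sites, a ratio of 0.727 (0.446 to 1.17), next to 0.769 (0.731 to 0.809) for the sites outside repeats. In S, 22 KO sites stood against 75 WT sites, a ratio of 0.293 (0.174 to 0.477), next to 0.460 (0.440 to 0.480) outside repeats. In S the 4-base units gave 7 KO sites against 49 WT sites, a ratio of 0.143 (0.0546 to 0.317). The 2-base units gave 12 against 21, a ratio of 0.571 (0.256 to 1.22), and the 3-base units 3 against 5, a ratio of 0.600 (0.0932 to 3.08). These 3 intervals overlap, and the difference between periods was not tested. In L the 4-base ratio was 0.810 (0.401 to 1.61), from 17 KO and 21 WT sites. Counted as loci (sites of a list within 100 bases of each other joined), all repeats had 20 loci in KO S against 65 in WT S, a ratio of 0.308 (0.177 to 0.515), whose interval holds the 0.460 of the sites outside repeats. Those other sites were not joined into loci, so the 2 ratios are counted in unlike ways. By locus the 4-base units had 7 loci in KO S against 39 in WT S, a ratio of 0.180 (0.0677 to 0.406). The difference between the L and S ratios was not tested.

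The coverage at the called bases moved with this result. The S ratio of repeat sites was 0.232 (0.117 to 0.430), from 13 KO and 56 WT sites, at coverage of 11 or more, next to 0.358 (0.338 to 0.379) outside repeats. At coverage of 6 to 10 it was 0.474 (0.189 to 1.10), from 9 KO and 19 WT sites, next to 0.667 (0.623 to 0.713) outside repeats. Median coverage at repeat sites was 9.5 in KO L, 8 in WT L, 12 in KO S and 15 in WT S, against 10, 10, 11 and 13 at the other sites of those lists. The files give no depth for uncalled bases, so fewer calls and less depth over repeats cannot be told apart. Within a genotype, repeat sites in S against L numbered 22 against 32 in KO (ratio 0.688, 0.381 to 1.22, next to 1.13 outside repeats) and 75 against 44 in WT (ratio 1.71, 1.16 to 2.53, next to 1.89).

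The 173 stretches had 26 different units, where a unit, its rotations and its complement count as 1. The 8 units with 5 or more sites held 139 of the sites, and the other 18 units shared 34. AC, the most common dinucleotide repeat of mammalian genomes, had the most sites over the 4 lists together, with 7 sites in KO L, 10 in WT L, 6 in KO S and 16 in WT S. AG had 6, 9, 4 and 4 sites in those lists, and AAAT had 4, 5, 3 and 11. AAT, ACAG and AGAT had 5 sites each over the 4 lists. AAAG was called at 5 bases in KO L, 2 in WT L, 0 in KO S and 3 in WT S.

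**Figure D2:**
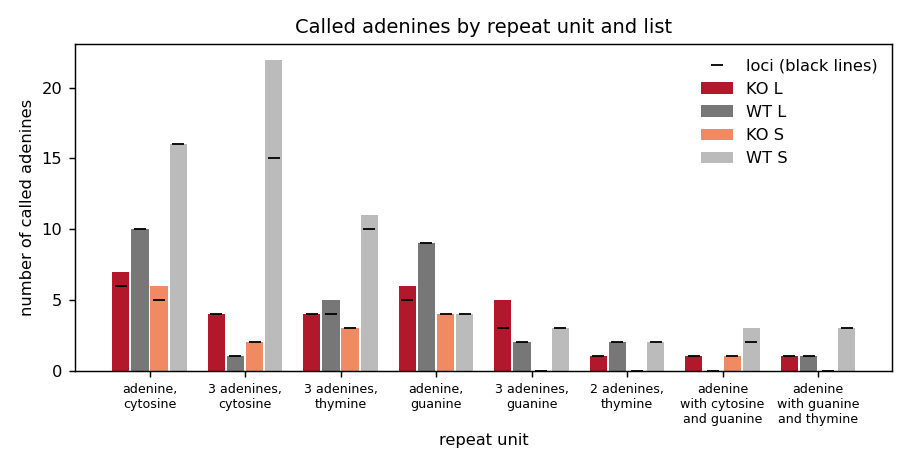
Number of called sites (bars, y axis) of the 8 units with 5 or more sites (x axis, units in words), KO beside WT in L and S; black lines give the number of loci. One 4-base unit, 3 adenines and a cytosine, stands out in WT S with 22 sites at 15 loci.

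AAAC had the most uneven spread. It was called at 4 bases in KO L, 1 in WT L, 2 in KO S and 22 in WT S, the last at 15 loci. The S ratio was 0.0909 (0.0104 to 0.370) by sites and 0.133 (0.0148 to 0.573) by loci, while in L it was 4.0 with an interval of 0.396 to 197. The 22 WT S sites had IPD ratios of 1.94 to 4.48 (median 2.245), coverage of 7 to 36 (median 18.5) and a median modified fraction of 45.2%. The 2 KO S sites had an IPD ratio of 3.19 at coverage 15, in Bcas3, and of 2.04 at coverage 9, outside genes. In KO L the 4 sites had IPD ratios of 3.21, 2.53, 5.24 and 2.05, and the WT L site, in Mogat1 (an enzyme of triacylglycerol synthesis), had 4.17. The median coverage of the WT S AAAC sites was thus above that of all repeat sites in each of the lists, and their median modified fraction was below the median of all repeat sites in each list. Without AAAC the 4-base units gave 5 sites in KO S and 27 in WT S, a ratio of 0.185 (0.0557 to 0.488), and all repeats together gave 0.377 (0.214 to 0.642).

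The place of the call in the repeat was bound in part by the length of the context. The called adenine was a base of the stretch at 121 of 173 sites (69.9%, 62.5 to 76.7%), before it at 25 and after it at 27. Inside shares were 26 of 32 in KO L (81.3%), 32 of 44 in WT L (72.7%), 14 of 22 in KO S (63.6%) and 49 of 75 in WT S (65.3%). Calls outside the stretch were 1 to 5 bases from its edge (median 3), and the length of the context allows no more than 5. A stretch of over 20 bases must cover base 21 of the context, so 87 of the inside calls were fixed by length. Of the 86 sites with a stretch of 20 bases or fewer, 34 were inside (39.5%, 29.2 to 50.7%) and 52 were outside. By list these inside counts were 7 of 13 in KO L, 8 of 20 in WT L, 5 of 13 in KO S and 14 of 40 in WT S, with overlapping intervals. A stretch of 20 bases or fewer that reaches an end of the context cannot cover base 21, and the repeat may run on beyond that end. The 39.5% is therefore not a share of calls that were free to fall inside. In the AGAT repeat of WT S printed above, a shorter stretch of 16 bases also meets the rule and covers the call, and with it 122 sites were inside. Among the 34 inside sites whose stretch was 20 bases or shorter, 12 called adenines fell in the first of 4 equal parts of the stretch's adenines, and 7, 7 and 8 in the next parts. At the 121 inside sites a stretch held 4 to 29 adenines (median 15), so most of these calls singled out 1 of many near-equivalent bases.

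**Figure D3:**
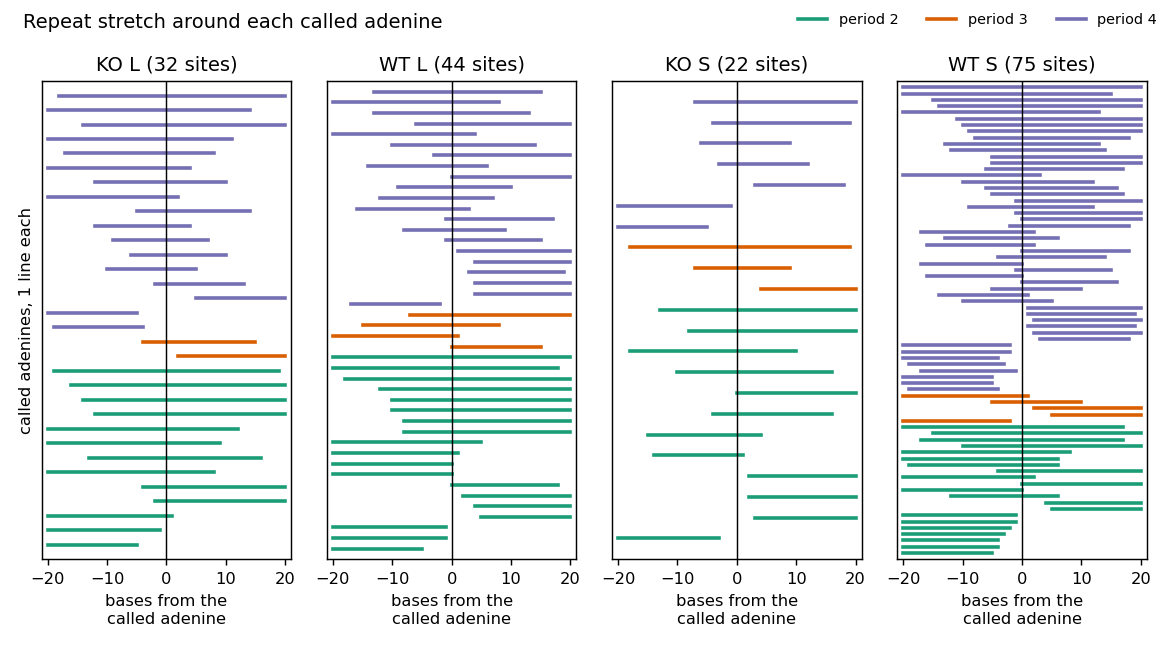
Each line is the repeat stretch of a called site, placed by its distance in bases from the called adenine (x axis, vertical line at 0), for the 4 lists and coloured by period. 121 of the 173 lines cross the called adenine, 87 of them longer than 20 bases and so bound to cross it, and the others begin or end within 5 bases of it.

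Inside the stretch, a unit whose adenines are all on one strand can be called on that strand only. Inside and beside the stretch together, AC repeats had 32 calls on the AC strand and 7 on the GT strand, of which 23 and 0 were inside. For AG repeats the counts were 19 on the AG strand and 4 on the CT strand, of which 18 and 0 were inside. Beside the stretch, where both strands can be called, AC repeats had 9 calls on the AC strand and 7 on the GT strand, and AG repeats had 1 on the AG strand and 4 on the CT strand.

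Within a 4-base unit with 3 adenines, the calls were not spread in the same way in each unit. Only calls inside the stretch with the exact unit around them are counted here, and the values outside repeats are calls at the same 5 letters elsewhere in the lists. In AAAG, 7 of 8 calls were at the first adenine, the one that follows the guanine (87.5%, 47.4 to 99.7%), at 5 of 6 loci, against 39.2% of 240 calls outside repeats. None was at the third adenine, which took 39.6% of the calls outside repeats. In AAAT, 10 of 16 calls were at the third adenine, the one before the thymine (62.5%, 35.4 to 84.8%), at 9 of 15 loci, against 36.6% of 336 calls outside repeats. That interval holds the 36.6%. Of the other AAAT calls 5 were at the second adenine and 1 at the first (6.25%, 0.158 to 30.2%). The first took 39.9% of the calls outside repeats, above its interval in repeats. In AAAC, 5 of 11 calls were at the first, 5 at the second and 1 at the third adenine, against 39.1%, 46.7% and 14.1% of 184 calls outside repeats. The AAAG calls at the first adenine numbered 4 of 4 in KO L, 1 of 1 in WT L and 2 of 3 in WT S, and 3 of the KO L calls share a locus. The AAAT calls at the third adenine numbered 2 of 2 in KO L, 4 of 4 in WT L, 0 of 2 in KO S and 4 of 8 in WT S. These differences were not tested.

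**Figure D4:**
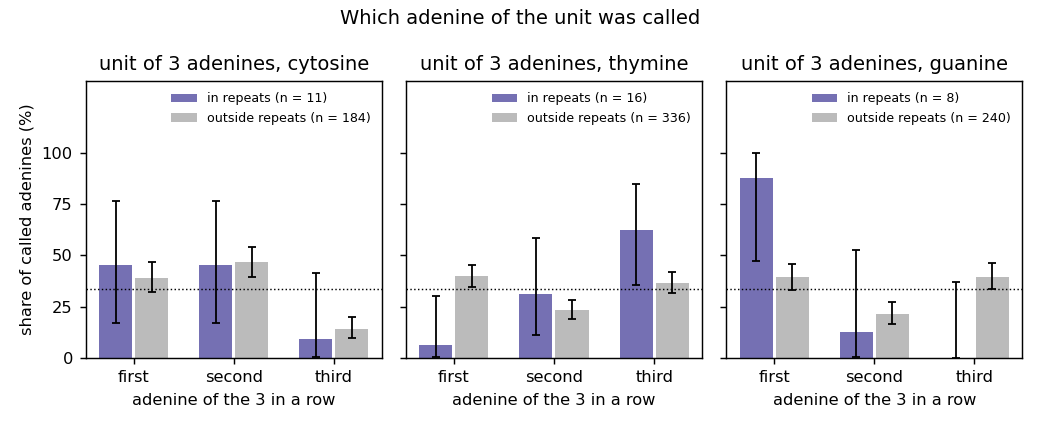
Percent of calls (y axis, with exact 95% intervals) at the first, the second and the third adenine of the units of 3 adenines and a cytosine, thymine or guanine, in repeats and outside repeats; the dotted line marks equal shares. In the unit with guanine the first adenine took 87.5% of 8 calls in repeats and 39.2% of 240 outside them.

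IPD ratios of repeat sites ran from 1.70 to 13.39. Their medians were 2.58 in KO L, 3.07 in WT L, 3.21 in KO S and 2.60 in WT S, and those of the other sites were 2.67, 2.65, 2.75 and 2.63. The differences, repeats minus other sites, were -0.09 (-0.32 to 0.70) in KO L, 0.42 (-0.07 to 0.81) in WT L, 0.46 (-0.29 to 1.06) in KO S and -0.03 (-0.30 to 0.12) in WT S. These are the intervals of the repeat median less a fixed median of the other sites, whose own counting error is left out. Each of these 4 intervals holds 0. In KO S the interval lay above 0 with 1 site per locus (0.75, 0.08 to 1.12), with 16 matched bases at the period (0.50, 0.08 to 1.32) and at a score of 30 or more (0.40, 0.06 to 4.65), and in WT L it did so with no region excluded (0.51, 0.02 to 0.90). Because the kinetics depend on the neighbouring bases, each repeat site was also set against sites outside repeats with the same base before and after the adenine. The median differences were then -0.135, 0.300, 0.525 and -0.03 in the same order of lists, again with intervals that hold 0.

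Single contexts moved more than the whole. Of the 12 contexts of 3 bases (the adenine and its neighbours) with 5 or more repeat sites, 9 had a higher median IPD ratio in repeats and 3 a lower one, by -0.23 to 1.55. AAG had 4.48 in 5 repeat sites against 2.93 outside repeats, and GAA had 3.50 in 11 against 2.49. AAAG repeats hold both contexts, but of the 8 calls inside them 0 were at the third adenine, the one in AAG. The AAAG sites, inside or beside the stretch, had the IPD ratios 5.04, 3.50, 12.18, 2.35 and 2.65 in KO L, 4.38 and 4.21 in WT L, and 3.01, 4.40 and 10.24 in WT S. The lists overlap, with 1 site above 10 in KO L and 1 in WT S. The highest ratio of all, 13.39 at coverage 14, was beside an AAGG repeat in Tex2 (KO L), and another AAGG site, on chromosome 15 in WT L, had 10.89 at coverage 8. Only 5 repeat sites were over 8: these 2, the AAAG sites with 12.18 and 10.24, and an AC site in KO L with 12.30 at coverage 7. This last selection was made after the values were seen.

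**Figure D5:**
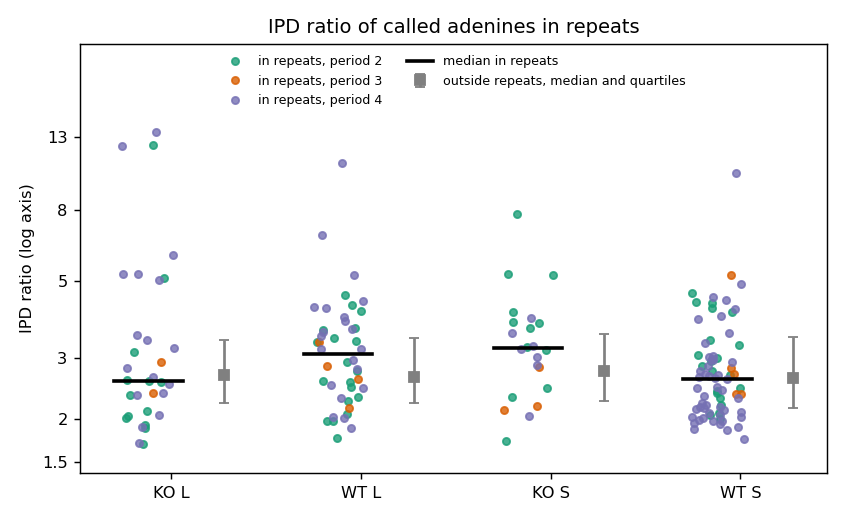
IPD ratio (y axis, log scale) of every repeat site by list and period, with the median of the repeat sites (black line) and the median and quartiles of the other sites (grey) of each list. The medians of repeat sites (2.58 in KO L, 3.07 in WT L, 3.21 in KO S, 2.60 in WT S) lie near those of the other sites, and 5 sites lie above 8.

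The median modified fraction of repeat sites with coverage of at least 11 was 100% in KO L (13 sites), 95.85% in WT L (10), 90.2% in KO S (13) and 65.5% in WT S (56). The sites outside repeats had medians of 70.6%, 73.7%, 78.8% and 72.7%. The intervals of the repeat medians were 40.1 to 100% in KO L, 71.0 to 100% in WT L, 57.5 to 100% in KO S and 54.9 to 80.8% in WT S, where AAAC made up 20 of the 56. Each holds the median of the other sites, so a difference in medians was not detectable at these numbers. A fraction of 100% was given to 7 of 13 repeat sites in KO L (53.85%, 25.1 to 80.8%). That interval lies above the 17.8% of the 1190 other sites. In WT L it was 4 of 10 against 20.3%, in KO S 5 of 13 against 22.2%, and in WT S 11 of 56 against 20.1%. In WT L, KO S and WT S the exact interval of the repeat sites holds the share of the other sites. An identification score of 20 or more was given to 2 of 32 repeat sites in KO L, 2 of 44 in WT L, 4 of 22 in KO S and 12 of 75 in WT S. The shares over all sites of those lists were 8.7%, 8.88%, 11.7% and 13.5%, and each lies within the exact interval of the repeat sites of its list. Of the 20 repeat sites with such a score, 11 had the called adenine inside the longest stretch and 12 inside any stretch that meets the rule.

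The 173 sites lay at 156 loci, 28 in KO L, 43 in WT L, 20 in KO S and 65 in WT S. 142 loci had 1 site, 12 had 2 and 2 had 3 or more. The 2 loci with 3 or more calls, and the 3 of the 12 loci with 2 calls whose scores sum highest, show how they sit along a repeat, printed as above on the called strand with 1 stretch in capitals.
Pcnx2, AAAC, WT S, chr8:125826263-125826331, minus strand: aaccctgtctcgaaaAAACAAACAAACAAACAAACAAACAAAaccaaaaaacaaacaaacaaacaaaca
AAAG locus, KO L, chr13:26416443-26416503, plus strand: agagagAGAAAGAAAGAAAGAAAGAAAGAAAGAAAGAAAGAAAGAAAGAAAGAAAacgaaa
Tmem167, AC, KO S, chr13:90097049-90097091, minus strand: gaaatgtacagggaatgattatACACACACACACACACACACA
Slc6a16, AAAC, WT S, chr7:45251164-45251208, plus strand: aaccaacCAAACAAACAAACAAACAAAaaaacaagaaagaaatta
Adam17, ACAG, WT S, chr12:21369136-21369180, plus strand: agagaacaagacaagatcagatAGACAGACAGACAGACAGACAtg

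The Pcnx2 repeat had 4 WT S calls, at bases 21, 24, 29 and 49 of the printed sequence, with IPD ratios of 1.95, 2.03, 2.16 and 2.09 at coverage of 33 to 35. Their modified fractions were 28.2%, 72.4%, 41.4% and 31.8%, with deposited bounds of 10.8 to 46.2%, 36.2 to 100%, 10.2 to 71.4% and 9.4 to 57.9% that all overlap. The AAAG locus on chromosome 13 had 3 KO L calls at bases 21, 25 and 41, with IPD ratios of 5.04, 3.50 and 12.18 at coverage of 11 or 12. Both steps, of 4 and 16 bases, are whole copies of the unit. In Tmem167 (which codes for a small membrane protein of the Golgi), the 2 KO S calls were 2 bases apart, with IPD ratios of 7.78 and 3.23. In Slc6a16, a member of a family of sodium-dependent transporters, the 2 WT S calls were 4 bases apart, with IPD ratios of 2.65 and 1.94. In Adam17, the gene of the protease that sheds TNF from the cell surface, the WT S calls had 1.97 and 2.45, at coverage 37 and 36. Over all loci, 11 of 16 neighbouring pairs of calls were a whole number of units apart, at 1 to 20 bases. Within an AC or AG stretch any pair on one strand must be so, and no expected share was computed, so the count shows no preference.

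No repeat base was called in a second list. Sites of KO L were looked for in WT L, those of KO S in WT S and in KO L, and those of WT S in WT L, and 0 of 32, 0 of 22, 0 of 22 and 0 of 75 were found. Over all sites the shares called again were low as well, 0.26% of KO L in WT L, 0.397% of KO S in WT S, 0.264% of KO S in KO L and 0.0908% of WT S in WT L, which is under 1 site for numbers as small as these. No call of the second list, in a repeat or not, lay within 100 bases of a repeat site.

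In genes, from gene start to gene end, lay 90 of the 173 repeat sites (52.0%), against 51.8% of the other sites. By list they were 9 of 32 in KO L (28.1%, 13.8 to 46.8%), 19 of 44 in WT L (43.2%, 28.4 to 59.0%), 11 of 22 in KO S (50%, 28.2 to 71.8%) and 51 of 75 in WT S (68.0%, 56.2 to 78.3%). The other sites of those lists had 51.0%, 52.9%, 50.6% and 52.0% in genes, which lies above the KO L interval and below the WT S interval. Counted by locus, the shares were 9 of 28 in KO L (32.1%, 15.9 to 52.4%) and 42 of 65 in WT S (64.6%, 51.8 to 76.1%), and both intervals then hold the share of the other sites. The share of the other sites was still counted by site. AAAC sites of WT S were in genes at 20 of 22 bases and 13 of 15 loci, and the other repeat sites of WT S at 31 of 53 bases (58.5%). 82 genes held a repeat site, and 0 of them held more than 1 locus. No repeat site lay in a promoter window (250 bases before to 50 after a gene start), 0 of 173, against 57 of 15650 other sites (0.364%). Repeat stretches are also scarce there, since 0.363% of the 3897344 adenines of 32544 promoter windows have such a context, so promoter calls in repeats were not detectable at these numbers.

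Beside the length that defines a repeat, 48 sites had a longest stretch of 15 bases and stayed out, with a median IPD ratio of 2.585 and median coverage of 13. 26 sites had one of 16 bases and were in, with 2.36 and 14.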

How the data were processed

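Each deposited list gives called adenines with position, strand and 41-base context. Per the file headers and labels, the columns used are the authors' score of a call, whose scale is not stated, the deposited coverage, a signal without normalization, and the deposited IPD ratio, a linear ratio of observed to predicted duration. The deposited identification score and modified fraction were used as they stand. Per the submitters' processing notes, positions are on build mm10. Caller, aligner, filters and how the 2 replicates of a group became 1 list: not given in the sources used here. Coverage counts passes or reads, which need not be different molecules, and its value at bases without a call is unknown.

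From the contexts, the longest stretch of period 2, 3 or 4 was found on the called strand; with stretches of several periods, the longest set the period. The rule found 200 of 200 stretches planted in simulated contexts with the right period, place and unit, and 0 of 5000 shuffled contexts passed. Where contexts overlap, 68341 of 68341 compared bases were equal. Shares have Clopper-Pearson intervals, ratios of counts exact conditional binomial intervals, and medians order-statistic intervals. No p-value was computed. Genes and promoter windows came from RefSeq tables of assembly GRCm38.p6, which has the chromosome coordinates of mm10. Sites were named by rule: the highest score of each period and list, the longest stretch of each period, and the 5 loci with the most calls (ties by summed score, set after the data were seen); some taken by the rule are not printed. The members and lists were chosen with earlier results of these data known. Python 3.11.15, pandas 2.3.3 and SciPy 1.17.1 were used.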

Additional observations from a re-analysis of the deposited data

Results flagged for a closer look

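For 9 kinds of repeat, the KO share of a list's sites lay on one side of the WT share in L and on the other side in S. They are the 3 periods and the units with 5 or more sites, save AC and AAT. The units are part of their periods, so the 9 are not independent. Each group is 1 list, so the difference between the parts was not tested, and many of the counts are under 10. Given as the KO minus WT difference in L less that in S, in percentage points of the sites of a list, the values were 0.542 for units of 4 bases, -0.138 for units of 2 bases and -0.0634 for units of 3 bases. For single units they were 0.387 for AAAC, 0.174 for AAAG, 0.0732 for AAAT, 0.054 for AGAT, 0.0495 for ACAG and -0.106 for AG. The value for units of 4 bases comes from 0.632% in KO L and 0.600% in WT L, and 0.231% in KO S and 0.742% in WT S. That for AAAC rests on 4 sites in KO L, 1 in WT L, 2 in KO S and 22 in WT S. Some differences in L were close to none. KO minus WT in L was 0.0086 points for AGAT, from 1 site in each list, and 0.00583 for AAAT, from 4 and 5 sites.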

How the results depend on the processing

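18 results were recomputed under 8 settings, which gave 121 values: 96 stayed within the counting interval of the reported value, 25 did not. A reversal was counted only where the interval of the reported value excluded its null, and there was none. The intervals of the IPD differences and of the L ratio hold their null, so no reversal could be counted for these. The shares have no direction to reverse, which leaves the S ratio alone. The S ratio outside repeats was under 1 too, at 0.460, so the lack of reversals says little. Of 26 IPD differences 7 had the other sign, 2 in KO L and 5 in WT S, where the reported values were -0.09 and -0.03. All 18 stayed within the counting interval of the reported value under 3 settings. These were 1 site per locus (that with the highest score, in a repeat or not), no region excluded, and chromosomes 1 to 19 and X. With 1 site per locus the interval of the L ratio moved off a null of 1 (0.575, 0.329 to 0.984). It still holds the 0.769 of the L sites outside repeats, counted by site, so it shows no difference particular to repeats. The interval also moved off 0 for the KO S IPD difference with 1 site per locus (0.75, 0.08 to 1.12). It did so for the WT L IPD difference with no region excluded (0.51, 0.02 to 0.90). With a stretch of 20 bases or more, the share of sites was 0.8569% in WT L, 0.3636% in KO S and 0.6055% in WT S, the inside share 95.45% in KO L, 90.0% in WT L, 90.91% in KO S and 92.5% in WT S, and 0.0% of KO S had an identification score of 20 or more. A longer stretch leaves less room beside it in the context, which raises the inside share by construction. With 16 matched bases at the period, the share of sites was 0.914% in WT L and 0.6812% in WT S, and the inside share 87.5% in WT L and 84.44% in WT S. At a score of 30 or more, with 4 to 6 repeat sites in the lists concerned, the inside share was 50% in KO L and 40% in KO S, identification scores of 20 or more were at 25% in KO L and 16.67% in WT L, and the IPD difference was 2.515 in KO L; the cause was not tested. At coverage of 25 or more, the share was 0.0% in KO L, 0.0% in WT L and 2.053% in WT S, 29.41% of WT S had such an identification score, and the S ratio of KO to WT was 0.05882, from 1 and 17 sites. The lone KO S site then gave an inside share of 0.0%, an identification share of 100% and an IPD difference of 1.47.

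No paired analysis was possible because each list joins both replicates of a group, and leaving out a replicate could not be run for the same reason. The count without AAAC, the local windows and the counts over stretches of up to 20 bases or over any stretch were added after the data were seen. Sites of a locus can share reads, which intervals over sites leave out. KO S holds the fewest repeat sites, 22, which limits the shares taken among them.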

Other observations

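The letters CTGTCTC (either strand, read also as GAGACAG), which stand near the end of the B1 family of mouse short interspersed elements, just before its A-rich tail, were in the contexts of 6 of 173 repeat sites (3.47%, 1.28 to 7.40%) and of 218 of 15650 other sites (1.39%). 5 of the 6 were in WT S, 1 in KO L and 0 in WT L and KO S. 3 of them held an AAAC repeat, out of 29 AAAC contexts. By locus they were 5 of 156 in all, 4 of 65 in WT S and 2 of 22 with an AAAC repeat. The central 41 bases of promoter windows held the letters in 0.919% of cases. A match says that the letters are there, not that the element is.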
